A study of Mus musculus with 15 samples.

Results

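The 10 genes described here encode the MHC class I antigen presentation pathway: the heavy chains H2-K1 and H2-D1, their light chain B2m, the peptide transporter subunits Tap1 and Tap2, the loading chaperone Tapbp (tapasin), the immunoproteasome subunits Psmb8, Psmb9 and Psmb10, and the trimming peptidase Erap1. They were taken from 18193 gene symbols on the array. All 10 had a probe set annotated to that symbol alone, and where several existed the brightest by its mean over the 15 arrays stood for the gene. The level therefore chose the probe set, and the genes themselves were proposed with earlier results of these data known. In all 10 genes the chosen probe set was also the brightest one in each of the 5 groups taken alone.

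RNA was measured on Affymetrix arrays in primary mouse embryonic fibroblasts (MEFs) from male embryos. MEFs with Hdac1 fl/fl alleles carried one retrovirus for Cre-ERT2, which cuts out floxed alleles once tamoxifen activates it, and another for a hairpin micro-RNA, either scrambled or directed against Hdac2 (the titles call it siRNA). Ethanol with the scrambled hairpin gave the control, and tamoxifen at 200 nM with the scrambled hairpin gave the Hdac1 knockout (KO). Ethanol with the hairpin against Hdac2 gave the Hdac2 knockdown (Kd), and tamoxifen with that hairpin gave cells with both perturbations. The fifth group was MEFs with intact Hdac1 (+/+) and tamoxifen; their viruses are not given in the sources used here. Each group had 3 arrays, and the labels do not say whether these were separate cultures; p-values therefore measure only how far these samples spread, and that spread may be technical. In mixed RNA from many cells, more cells expressing a gene and more RNA per cell cannot be told apart.

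Class I molecules display peptides from inside the cell to cytotoxic T cells. Proteasomes cut proteins into peptides, TAP pumps the peptides into the endoplasmic reticulum, ERAP1 trims them there, and tapasin helps to load them onto a heavy chain paired with beta-2-microglobulin. Interferon is known to raise most genes of the pathway, and NLRC5 is known as the transactivator that binds class I promoters through a conserved module with a site for CREB/ATF factors and a CCAAT-type box. Fibroblasts express class I at a low level until interferon acts on them.

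Promoter sequences are shown first, because they bear on which of the genes share those elements. RefSeq windows on build GRCm38.p6, from 250 bases before to 50 bases after each annotated start, were found for 9 of the 10 genes, all but Tap2; H2-K1 had 2 and the first is shown. Searched on both strands were 5 motifs. The core of the interferon-stimulated response element was taken as GAAA repeated after any 2 bases, the gamma-activated site as TTCNNNGAA, and the NF-kappaB core as GGGA and CC with any 4 bases between. CCAAT and TGACG, a half-site of the cyclic AMP response element, were the others. The windows below run 5′ to 3′ on the gene's strand, with every match in capitals; the matches of the NF-kappaB core on opposite strands overlap each other in the first 3 windows. The heavy chains and B2m are shown for their common layout, and Tap1 because its window also holds the start of Psmb9. Erap1 is shown because it moved against the other genes in cells with both perturbations.
H2-K1, chr17:34000298-34000597, minus strand: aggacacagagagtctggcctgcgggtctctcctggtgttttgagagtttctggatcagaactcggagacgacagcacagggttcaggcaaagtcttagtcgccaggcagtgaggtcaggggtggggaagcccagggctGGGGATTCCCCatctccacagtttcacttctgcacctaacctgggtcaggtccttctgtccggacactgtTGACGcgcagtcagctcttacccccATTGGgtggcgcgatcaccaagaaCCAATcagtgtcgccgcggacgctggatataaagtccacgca
H2-D1, chr17:35262844-35263143, plus strand: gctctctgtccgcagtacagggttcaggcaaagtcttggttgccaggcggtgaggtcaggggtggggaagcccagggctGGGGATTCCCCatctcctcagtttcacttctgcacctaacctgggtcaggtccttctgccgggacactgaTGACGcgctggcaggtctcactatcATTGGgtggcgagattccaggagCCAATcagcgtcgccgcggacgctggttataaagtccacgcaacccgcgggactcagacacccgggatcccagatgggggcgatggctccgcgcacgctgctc
B2m, chr2:122147437-122147736, plus strand: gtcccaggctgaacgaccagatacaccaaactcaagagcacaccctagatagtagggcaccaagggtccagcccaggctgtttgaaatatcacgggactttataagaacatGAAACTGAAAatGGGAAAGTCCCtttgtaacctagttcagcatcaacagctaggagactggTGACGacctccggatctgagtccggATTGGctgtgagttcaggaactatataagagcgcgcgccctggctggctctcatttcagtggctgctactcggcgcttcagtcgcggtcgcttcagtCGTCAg
Tap1, chr17:34187306-34187605, plus strand: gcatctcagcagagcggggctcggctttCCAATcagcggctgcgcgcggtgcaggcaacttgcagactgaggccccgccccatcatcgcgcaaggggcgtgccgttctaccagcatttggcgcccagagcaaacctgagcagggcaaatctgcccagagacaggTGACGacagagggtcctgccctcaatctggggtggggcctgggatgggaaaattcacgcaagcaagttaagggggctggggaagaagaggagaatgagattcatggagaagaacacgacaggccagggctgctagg
Erap1, chr13:74639603-74639902, plus strand: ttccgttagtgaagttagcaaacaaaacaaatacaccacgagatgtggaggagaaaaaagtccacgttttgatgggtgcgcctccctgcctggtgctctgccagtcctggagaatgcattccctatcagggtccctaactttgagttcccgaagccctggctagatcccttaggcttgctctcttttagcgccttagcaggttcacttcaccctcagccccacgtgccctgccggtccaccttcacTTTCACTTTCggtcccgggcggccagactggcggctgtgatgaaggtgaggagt

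The H2-K1 and H2-D1 windows shared an identical run of 47 bases that holds the NF-kappaB core, and both carried TGACG upstream of CCAAT-type letters. TGACG stood in the windows of 5 of the 9 genes (H2-K1, H2-D1, B2m, Tap1 and Psmb9) and in 20.8% of all 32851 windows of that table. CCAAT stood in those 5 and in Tapbp, against 37.4% of all windows, and the NF-kappaB core in 3 genes against 20.7%. The interferon element matched in B2m and Erap1, against 3.44% of all windows, and the gamma-activated site in Psmb8, against 8.3%. The Tap1 and Psmb9 starts lay 226 bases apart on opposite strands, so that their windows had 275 bases in common. Their TGACG and their CCAAT matches are the same bases, so each of these sites is counted for both genes above. A match is a description of letters, and a window without one says nothing about the factor.

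The targeted genes followed the labels. Hdac1 was at 3499, 3498 and 3673 in control and at 155, 144 and 183 in KO cells, and at 106, 158 and 203 with both. Hdac2 fell from 6536, 7354 and 7264 in control to 1028, 940 and 908 in Kd and to 1030, 1013 and 1031 with both, so that the knockdown left part of the signal. All values are linear intensities in the arbitrary unit of the deposited table. Array medians ran from 24.1 to 30.7 and were highest on the arrays of cells with both perturbations (29.1 to 30.7, against 24.1 to 25.1 in control). Fold changes are on the scale log2(intensity + 16), which understates those of dim genes. They were tested with limma over 13382 genes, with adjusted p under 0.05 as the threshold. A gene was tested if it lay above the 40th percentile of its array on at least 3 arrays, and all 10 pathway genes did so on all 15.

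In cells with both perturbations 9 of the 10 genes of the pathway were higher than in the ethanol control, and Erap1 was lower. These cells differ from that control by tamoxifen too, and in +/+ cells with tamoxifen 8 of the 10 genes were higher than in that control. Among these 8 was Erap1, higher by 0.50 in +/+ cells although it fell with both, and the others rose by less than with both. The values for each gene are given further on, and comparisons with tamoxifen on both sides follow as well. The immunoproteasome subunit Psmb8 and the transporter subunit Tap1 rose most, by 3.94 and 3.19 on the log2 scale, and the heavy chains H2-D1 and H2-K1 by 2.33 and 2.07. The 9 genes that rose had no array with both perturbations below any control array, and Erap1 had none above. The median log2 fold change of the 10 genes was 1.66, against 0.16 over all genes tested. This comparison called 65.5% of all genes: 46.2% higher (6181) and 19.3% lower (2585), and in 50.9% and 20.5% of all genes the arrays of the groups did not overlap, higher and lower. Quantile normalization turned the split of all genes to 4125 higher against 4894 lower, and centring the arrays on their medians to 3997 against 5526. Centring moved the median of all genes from 0.16 to -0.11, and 8 of the 10 genes remained higher and Erap1 lower under both scalings; Psmb10 lost its call (0.12 with adjusted p = 0.174 by quantiles, 0.06 with adjusted p = 0.495 by centring).

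**Figure D1:**
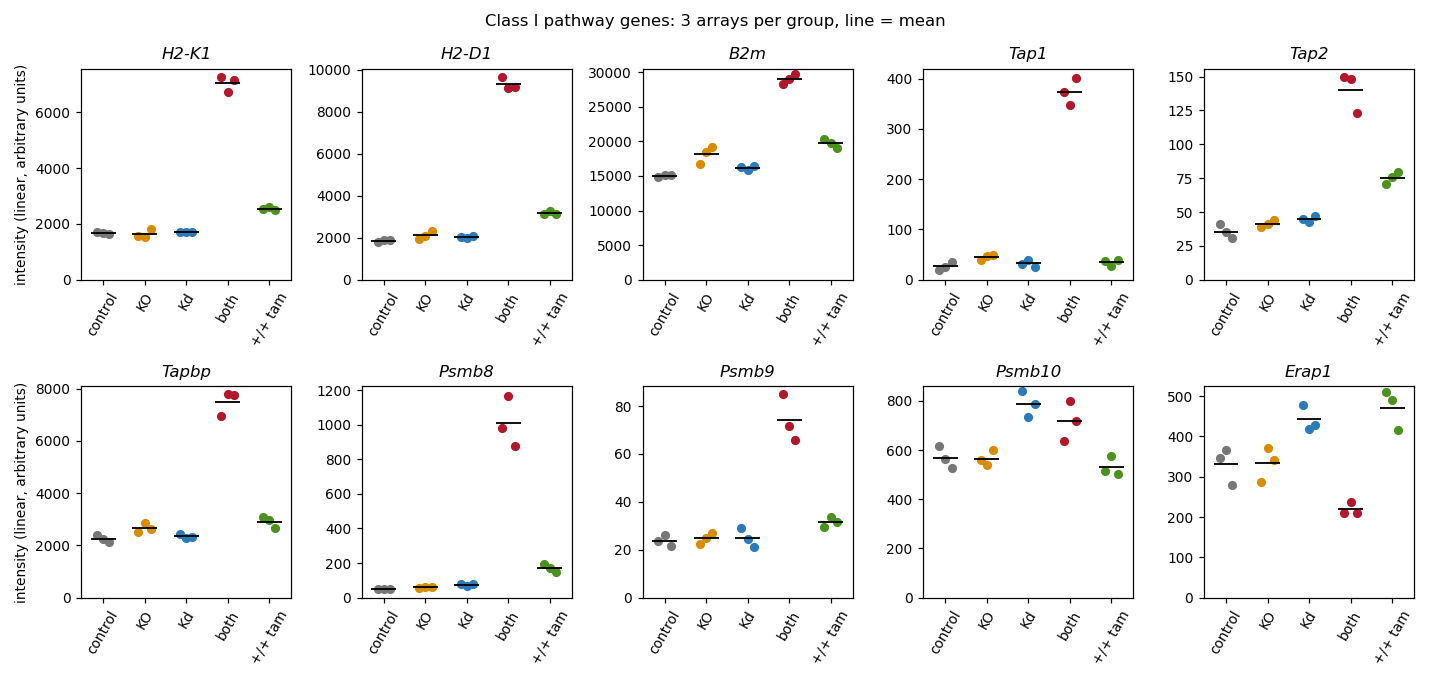
Linear intensity of each pathway gene (vertical axis, from 0, arbitrary units of the deposited table) on the 3 arrays of each group (points), with the group mean as a line; +/+ tam stands for +/+ cells with tamoxifen. In 8 genes the arrays with both perturbations stand above those of every other group, Psmb8 at 878 to 1165 against 48.7 to 51.9 in control; Psmb10 overlaps Kd, and Erap1 is lowest with both.

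The heavy chains bind the peptide and are what the T cell receptor sees. H2-K1 was measured at 1697, 1680 and 1629 in control, 1574, 1547 and 1831 in KO, 1712, 1696 and 1729 in Kd, and 7286, 6718 and 7151 with both. In +/+ cells with tamoxifen it was at 2550, 2593 and 2511. The first 3 groups overlapped each other, the +/+ arrays lay above them, and the arrays with both lay above all others. The log2 fold change against control was 2.07 ± 0.07 with both (SE; adjusted p = 2.98e-13), -0.02 ± 0.07 in KO (adjusted p = 0.878) and 0.04 ± 0.07 in Kd (adjusted p = 0.823). H2-D1 was at 1777, 1867 and 1880 in control, 1950, 2078 and 2342 in KO, 2019, 2004 and 2091 in Kd, 9653, 9106 and 9177 with both, and 3142, 3279 and 3126 in +/+ cells. KO and Kd overlapped each other a little above control, and the arrays with both again stood apart. With both, H2-D1 had a mean 5.06 times that of control (log2 fold change 2.33 ± 0.07, adjusted p = 8.97e-14). Its change in KO was 0.20 ± 0.07 (adjusted p = 0.0449), a call that 4 of 17 alternatives kept; it ended, among others, without KO replicate 3 (0.13, adjusted p = 0.157), without control replicate 1 (adjusted p = 0.145) and after quantile normalization (0.10, adjusted p = 0.164).

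H2-K1 and H2-D1 are highly similar paralogs, and their probe sets are of the _x_at type, which can pick up related transcripts, so the genes cannot be fully separated here. The array carried 4 probe sets for H2-K1 alone and 9 for H2-D1 alone. For H2-K1 all 4 rose with both, by 0.57 to 2.30. For H2-D1, 8 passed the filter on dim probe sets and 5 rose, by 0.36 to 2.79; the other 3 had control means of 17.6 to 19.5, near the 40th percentile of their arrays (18.8 to 22.5). The H2-D1 probe set outside the _x_at type with signal rose from 87.2 ± 21 to 461 ± 57 (SD, n = 3 each), a log2 fold change of 2.22 ± 0.17 (adjusted p = 8.04e-09 over all probe sets).

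B2m encodes the light chain, without which class I does not reach the surface. Its intensities were 14830, 15147 and 15103 in control, 16725, 18471 and 19187 in KO, 16338, 15805 and 16428 in Kd, 28325, 29025 and 29778 with both, and 20407, 19766 and 19044 in +/+ cells. Control was lowest, Kd and KO followed without overlap, KO overlapped the +/+ cells, and the arrays with both were highest. The log2 fold change was 0.95 ± 0.06 with both (adjusted p = 1.35e-09) and 0.27 ± 0.06 in KO (adjusted p = 0.00568). In Kd it was 0.11 ± 0.06 (adjusted p = 0.345). B2m changed least among the 8 genes whose rise with both kept its call under every alternative. The KO call ended when the model held KO and control alone (adjusted p = 0.0511) and with arrayWeights (adjusted p = 0.0674). The other B2m probe set rose by 0.90 with both and by 0.23 in KO.

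Tap1 and Tap2 form the peptide transporter, and tapasin bridges it to the empty heavy chain. Tap1 was close to the floor of the array in control, at 20.1, 26 and 35.3, and was at 39.6, 47.1 and 48.4 in KO, 31.6, 39.3 and 26.1 in Kd and 36.5, 27.3 and 39.3 in +/+ cells. With both it was at 373, 348 and 401. Kd and +/+ arrays overlapped control, KO lay just above these groups, and combined loss stood apart by a ratio of means of 13.8. The log2 fold change was 3.19 ± 0.13 with both (adjusted p = 3.07e-12) and 0.51 ± 0.13 in KO (adjusted p = 0.00806). That KO call was kept in 14 of 17 alternatives, with adjusted p = 0.05 (just over the threshold) after quantile normalization, 0.0526 with centred arrays and 0.176 with arrayWeights. Of 4 Tap1 probe sets, 2 passed the filter. The dimmer one was at 15.8, 11.4 and 15.6 in control and 23, 33.7 and 29.1 with both. It passed the filter only through the arrays with both, so its rise carries no support.

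Tap2 was at 40.8, 34.9 and 31.1 in control, 38.9, 40.9 and 44.3 in KO, 45.1, 42.3 and 46.9 in Kd, and 70.7, 76.2 and 79.4 in +/+ cells. With both it was at 150, 148 and 123. The order was control, KO and Kd, each overlapping the next, then +/+ cells and then both, each without overlap. Tap2 rose by 1.60 ± 0.08 with both (adjusted p = 7.64e-11), and the changes of 0.16 in KO (adjusted p = 0.195) and 0.24 in Kd (adjusted p = 0.083) did not pass; the Kd change passed in 2 of 17 alternatives, without control replicate 1 (0.31, adjusted p = 0.0415) and with arrayWeights (adjusted p = 0.0222). Tapbp was at 2389, 2256 and 2126 in control, 2508, 2852 and 2640 in KO, 2443, 2291 and 2314 in Kd, 3080, 2962 and 2661 in +/+ cells and 6953, 7800 and 7753 with both. Kd overlapped control, KO overlapped +/+ cells, and both stood apart. It rose by 1.73 ± 0.08 with both (adjusted p = 1.13e-11), and its other probe set by 1.65. Its change in KO was 0.24 ± 0.08 (adjusted p = 0.0339), and 8 of 17 alternatives kept that call; without KO replicate 2 it was 0.19 (adjusted p = 0.148), without KO replicate 3 the adjusted p was 0.059, and without control replicates 2 and 3 it was 0.0773 and 0.137.

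Psmb8, Psmb9 and Psmb10 replace the constitutive catalytic subunits in the immunoproteasome. Psmb8 was at 49.6, 51.9 and 48.7 in control, 56.3, 63.5 and 60.7 in KO, 79.1, 68.3 and 76.3 in Kd, 196, 170 and 149 in +/+ cells, and 981, 1165 and 878 with both. No neighbouring groups in that order overlapped. The ratio of means between both and control was 20.1, the log2 fold change 3.94 ± 0.10 (adjusted p = 1.5e-14), and Psmb8 ranked 58 from the top among the 13382 genes. It was also called in Kd (0.45 ± 0.10, adjusted p = 0.00761, in 16 of 17 alternatives), and stood at 0.20 ± 0.10 in KO (adjusted p = 0.16). A dimmer Psmb8 probe set of the _x_at type moved far less with both (0.38, adjusted p = 0.00884 over all probe sets).

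Psmb9 was near the floor at 23.7, 26.1 and 21.7 in control, 22.6, 24.8 and 27.1 in KO and 29.2, 24.5 and 21.2 in Kd. It was at 29.5, 33.7 and 31.7 in +/+ cells and 85, 71.8 and 65.9 with both, which lay above every other array. Its log2 fold change with both was 1.17 ± 0.09 (adjusted p = 5.85e-09), and it stood at 0.04 in both KO and Kd (adjusted p = 0.824 and 0.866). Psmb10 had another pattern: 615, 564 and 529 in control, 558, 539 and 600 in KO, 516, 576 and 502 in +/+ cells, but 842, 733 and 787 in Kd and 637, 799 and 720 with both. Kd and both overlapped, and control, KO and +/+ cells overlapped. Psmb10 rose in Kd by 0.46 ± 0.09 (adjusted p = 0.00309), and with both by 0.32 ± 0.09 (adjusted p = 0.00463), a call lost under both scalings given above. The difference between both and Kd was -0.13 (95% interval -0.32 to 0.06, adjusted p = 0.208); it passed after quantile normalization (-0.28, adjusted p = 0.00355) and with centred arrays (-0.34, adjusted p = 0.00113).

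Erap1 trims peptides to the length that class I binds. It was at 346, 367 and 279 in control, 288, 372 and 341 in KO, 479, 418 and 429 in Kd, 509, 490 and 416 in +/+ cells, and 211, 238 and 210 with both. Control overlapped KO, Kd overlapped +/+ cells above them, and both lay below every other array. Erap1 fell by 0.55 on the log2 scale with both (SE 0.11, adjusted p = 0.000371) and rose by 0.41 ± 0.11 in Kd (adjusted p = 0.0253). The Kd call was kept in 13 of 17 alternatives; it was lost without control replicate 3 (0.30, adjusted p = 0.135), without Kd replicate 1 (0.35, adjusted p = 0.116) and without Kd replicate 3 (0.43, adjusted p = 0.0559). Its other, dimmer probe set was at -0.08 with both (adjusted p = 0.744 over all probe sets). The promoter window of Erap1 shown above holds the letters of the interferon element across its start, as that of B2m does upstream. With both perturbations these 2 genes moved in opposite directions, while in +/+ cells B2m (0.39) and Erap1 (0.50) were each higher than in control. A part of the element in these changes was not tested.

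**Figure D2:**
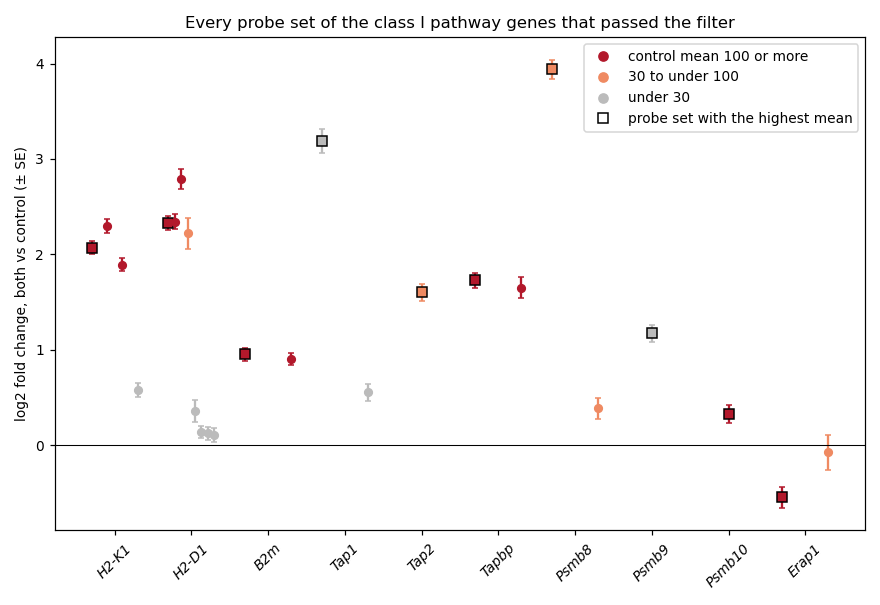
Log2 fold change between cells with both perturbations and control (vertical axis, ± SE) for each of the 25 probe sets of the pathway genes that passed the filter, grouped by gene; colour gives the mean control intensity and a black-edged square marks the probe set that stands for the gene. Probe sets with higher control intensity of H2-K1 and H2-D1 lie between 1.89 and 2.79, and the grey ones of H2-D1 between 0.11 and 0.36. The dimmer Tap1 probe set passed the filter only through the arrays with both, so its point carries no support.

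Of 28 probe sets that named a pathway gene alone, 25 passed the filter. With both perturbations 20 were higher and 1 was lower, against 60.6% called among the 25213 probe sets tested one by one. The dimmer Tap1 probe set, counted among the 20, passed the filter only through the arrays with both, so its call carries no support. The spread within a gene was wide where a probe set was dim, as for Psmb8 and H2-D1, and narrow for the bright pairs of B2m and Tapbp.

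Each perturbation alone gave smaller log2 fold changes than the combination in 8 of the 10 genes, while Psmb10 was highest in Kd and Erap1 rose in Kd and fell with both. In KO cells 4 of the 10 genes rose (H2-D1, B2m, Tap1 and Tapbp) and 0 fell, by 0.20 to 0.51, with a median of 0.18 against 0.08 over all genes; 24.2% of all genes were called, 19.6% higher and 4.66% lower. In 5 genes the KO arrays all lay above control and in 0 below, against 27.6% and 7.37% of all genes. The split of all genes was 2617 higher against 623 lower; quantile normalization gave 1888 against 1892 and centring 1604 against 2167, and 1 of the 4 calls, B2m, remained under either scaling. In Kd cells 3 genes rose (Psmb8, Psmb10 and Erap1) and 0 fell, with a median of 0.16 against 0.04, and 10.6% of all genes were called, 7.55% higher and 3.04% lower. The Kd arrays all lay above control in 6 genes and below in 0, against 23.8% and 10.8% of all genes. The split there was 1010 against 407; quantile normalization gave 1066 against 1008 and centring 904 against 1086, and the same 3 genes rose under both scalings. The calls in KO and in Kd fell on different genes, but KO and Kd were compared with the same control arrays, and KO cells had received tamoxifen while Kd cells had not. A difference between KO and Kd was not tested here. H2-D1, called in KO alone, changed by 0.20 there and by 0.145 in Kd. Psmb8, called in Kd alone, changed by 0.453 there and by 0.204 in KO.

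The interaction of deletion and knockdown, which is the change by deletion in knockdown cells minus that in cells with the scrambled hairpin, tests whether the changes add up on the log2 scale. It passed in 9 of the 10 genes, higher in 8 and lower in Erap1, against 43% of all genes, 25.8% higher and 17.2% lower. For Psmb8 the sum of the KO and Kd changes was 0.66 and the measured change with both 3.94, an interaction of 3.29 ± 0.14 (adjusted p = 5.72e-11). For H2-K1 the sum was 0.02 and the measured change 2.07. For Tap1 the values were 0.68 and 3.19, and for Tapbp 0.30 and 1.73. Erap1 had a sum of 0.42 and a measured change of -0.55, an interaction of -0.97 ± 0.16 (adjusted p = 0.000104). Psmb10 had a sum of 0.45 and a measured change of 0.32; its interaction was -0.13 (95% interval -0.40 to 0.14, adjusted p = 0.466). The interaction calls of these 9 genes held in all alternatives run. Over all genes its split was 3453 higher and 2296 lower, and 3050 and 3715 after quantile normalization. No group had the hairpin against Hdac2 and tamoxifen with intact Hdac1. A response to tamoxifen that depends on the hairpin therefore cannot be told apart from the deletion in this term.

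**Figure D3:**
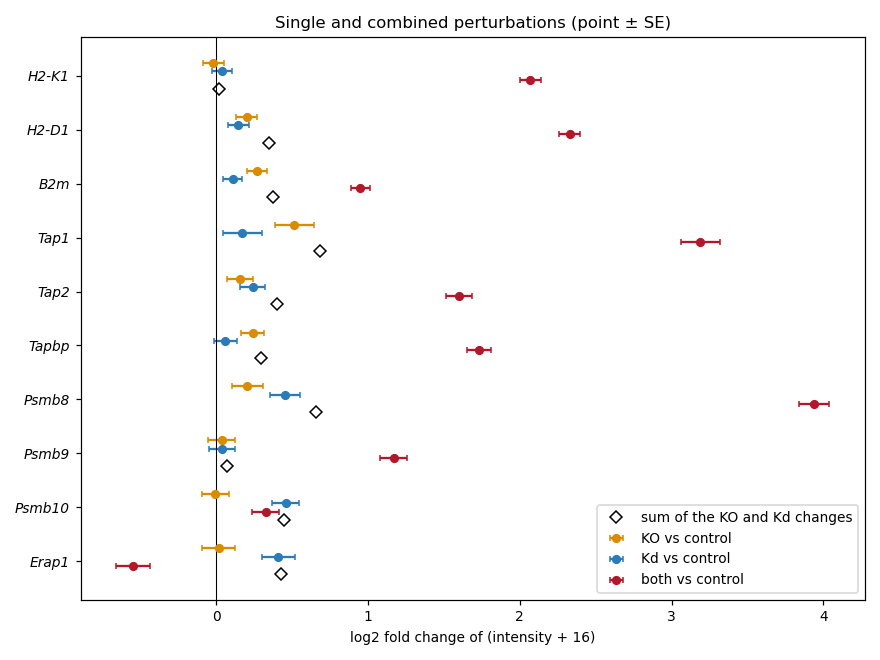
Log2 fold change against control (horizontal axis) in KO, Kd and cells with both perturbations (filled points ± SE, 3 arrays a group) for each pathway gene, with the sum of the KO and Kd changes as open diamonds. In 8 genes the combined change lies to the right of the diamond, by 3.29 in Psmb8, and in Erap1 to the left by 0.97; in Psmb10 they lie close together.

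Cells with both perturbations were also compared with each single perturbation. Against Kd 8 genes were higher and Erap1 lower, where 63.4% of all genes were called (42.9% higher, 20.5% lower). Against KO 9 were higher and Erap1 lower, where 56.8% were called (36.2% higher, 20.6% lower). The arrays did not overlap in the same 9 and 10 genes, where 48.7% of all genes stood wholly higher and 22.2% wholly lower against Kd, and 37.6% and 20% against KO. The comparison with KO has tamoxifen on both sides. In it Psmb8 was higher by 3.74 ± 0.10 (adjusted p = 4.22e-14), Tap1 by 2.68 ± 0.13, H2-D1 by 2.13 ± 0.07, H2-K1 by 2.09 ± 0.07, Tapbp by 1.49, Tap2 by 1.44, Psmb9 by 1.14 and B2m by 0.68. After quantile normalization the splits of all genes were 4005 and 4721 against Kd and 3774 and 4627 against KO, in place of 5742 and 2737, and 4842 and 2762.

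MEFs with intact Hdac1 also had higher class I genes than the floxed control. In +/+ cells with tamoxifen 8 of the 10 genes were higher and 0 lower, with a median of 0.44 against 0.08 over all genes, where 28.5% were called (21.5% higher, 6.93% lower). Psmb8 was higher by 1.5 ± 0.10 (adjusted p = 1.96e-08), Tap2 by 0.83 ± 0.08, H2-D1 by 0.78 ± 0.07, H2-K1 by 0.61 ± 0.07 and Erap1 by 0.50 ± 0.11. Tap1 (0.23, adjusted p = 0.199) and Psmb10 (-0.10, adjusted p = 0.468) did not pass, and Psmb9 (0.26, adjusted p = 0.0389) passed in 9 of 16 alternatives, not after quantile normalization (adjusted p = 0.063), not with centred arrays (adjusted p = 0.172) and not without any 1 of the +/+ arrays or without control replicate 1 or 3 (adjusted p 0.0535 to 0.141). The arrays lay wholly above control in the 8 genes called and below in 0, against 35.8% and 11.9% of all genes. The split of all genes was 2883 and 928, and 2042 and 1951 after quantile normalization. These cells differ from control in genotype, tamoxifen and possibly virus, which cannot be told apart here.

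With the +/+ cells as reference, KO cells were lower in 5 genes and higher in 0, where 24.1% of all genes were called (12.8% higher, 11.3% lower). Psmb8 was lower there by -1.30 ± 0.10, Tap2 by -0.67, H2-K1 by -0.63, H2-D1 by -0.58 and Erap1 by -0.48. The KO arrays lay wholly above those of +/+ cells in 1 gene, Tap1, and wholly below in 6, against 17.7% and 15.6% of all genes. So H2-D1 was higher in KO cells than in the ethanol control and lower than in +/+ cells with tamoxifen. Cells with both perturbations remained higher than +/+ cells in 9 genes and lower in Erap1, where 61.8% of all genes were called (38.3% higher, 23.5% lower). The changes were 2.96 ± 0.13 for Tap1, 2.44 ± 0.10 for Psmb8, 1.54 ± 0.07 for H2-D1, 1.46 ± 0.07 for H2-K1 and 1.37 ± 0.08 for Tapbp, and -1.05 ± 0.11 for Erap1. Arrays did not overlap in any of the 10, against 42.7% of all genes higher and 25% lower. The splits of all genes after quantile normalization were 2099 and 2246 for KO (1711 and 1516 without it) and 3983 and 4826 for both (5124 and 3143 without it).

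Other genes of the pathway were read from lists chosen with earlier results of these data known. Their counts with both are to be read against all genes, of which 46.2% were called higher and 19.3% lower. The transactivator Nlrc5 rose with both, from 27.3, 16.8 and 28.1 in control to 242, 168 and 188. It was at 25.8, 30.1 and 48.3 in KO, 35.7, 31.7 and 29.4 in Kd and 77.8, 56.9 and 44.8 in +/+ cells, so that the arrays with both stood apart and those of +/+ cells, next by their mean, overlapped KO. Its log2 fold change with both was 2.42 ± 0.18 (adjusted p = 3.88e-09), and the interaction 1.82 ± 0.25 (adjusted p = 2.12e-05). Of 13 tested class I transcription regulators 6 rose and 2 fell with both (3 and 6 after quantile normalization), with a median of 0.19, near the 46.2% and 19.3% of all genes, among them Rfx5, a DNA-binding factor of the same promoter module (0.74), Nfyb (0.51) and Nfyc (-0.56), subunits of the CCAAT-binding factor. The interferon-induced factor Irf1 was at 0.19 and did not pass.

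Of 15 subunits and assembly factors of the constitutive proteasome 6 rose and 2 fell with both, with a median of 0.09, at or below the 46.2% and 19.3% of all genes, and 1 rose and 8 fell after quantile normalization. The catalytic subunits that Psmb8, Psmb9 and Psmb10 replace, Psmb5 (-0.08), Psmb6 (0.05) and Psmb7 (0.09), did not pass. Psmb4 (0.37), Pomp (0.31), an assembly factor, and Psma7 (0.25) rose and Psma1 fell by 0.32. The calls of Pomp and Psma7 ended under both scalings (Pomp 0.08, adjusted p = 0.104, and 0.04, adjusted p = 0.364), Psma7 changed sign with centred arrays, the Psmb4 call ended with centred arrays (adjusted p = 0.0635), and that of Psma1 with the mean of its probe sets (adjusted p = 0.168). The proteasome activator subunit Psme1, itself known as interferon-induced, rose from 3010, 2979 and 2797 to 6020, 6190 and 5509 (1.01 ± 0.07, adjusted p = 4.62e-09), whereas Psme3, of a nuclear activator, fell by 0.59. Of 5 other peptidases 2 rose, Npepps (0.47) and Lap3 (0.24, with its sign changed by centring), and Thop1 fell by 0.46.

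A further list held 10 genes of the loading complex and the endoplasmic reticulum, chaperones together with enzymes and channel subunits. With both 8 rose and 0 fell, against 46.2% and 19.3% of all genes (median 0.35, and 5 and 2 after quantile normalization). Uggt1, a glucosyltransferase that checks glycoprotein folding (0.66), Bcap31 (0.56), Canx (0.53) and Pdia3, the oxidoreductase bound to tapasin (0.49), rose most. Of 24 other class I and class I-like molecules listed 8 were tested, and 6 rose and 1, Hfe (-0.47), fell (median 0.90), also 6 and 1 under both scalings. Procr (1.90), Fcgrt, the neonatal receptor for immunoglobulin G (1.31), H2-T24 (1.26) and Mr1, which presents vitamin metabolites (1.09), led them. Fcgrt (-0.69) was lower and Mr1 (2.38) higher in +/+ cells than in control.

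**Figure D4:**
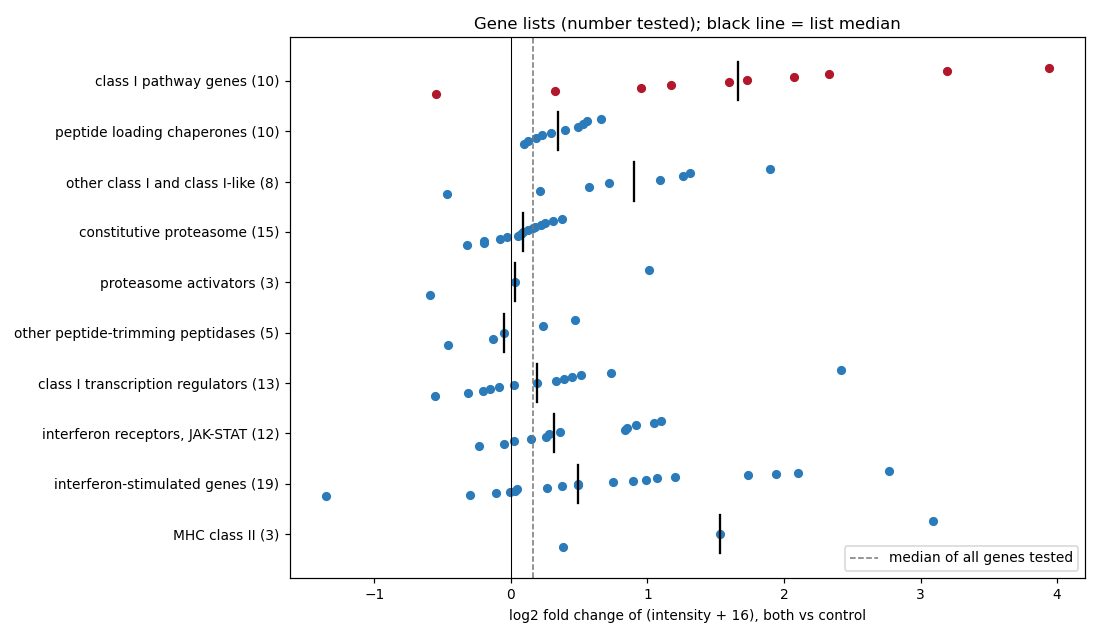
Log2 fold change between cells with both perturbations and control (horizontal axis) for each tested gene (points) of the pathway and of the other lists, with the number tested in parentheses, the list median as a black line and the median of all 13382 genes (0.16) as a dashed line. The pathway genes have a median of 1.66 with Erap1 below 0, and the constitutive proteasome has one of 0.09. Cd74 (class II) and Usp18 (interferon-stimulated) are drawn and enter their list medians. Both genes passed the filter only through the arrays with both perturbations, so their points carry no support.

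Class II presentation and interferon signalling were also measured. Of 10 class II genes 3 were tested. Cd74, the class II invariant chain, was at 14.5, 15.4 and 13.8 in control and 281, 257 and 203 with both; it passed the filter only through these arrays and had to differ, so no fold change or test is given. H2-DMa, which loads class II, went from 36.5, 42.1 and 34 to 142, 137 and 136 (1.53 ± 0.10). H2-Aa and H2-Eb1, which encode class II chains, and the class II transactivator Ciita had control means of 14.7 to 17.5 and means of 16.9 to 20.6 with both, and were not tested as too dim. Of 12 tested interferon receptor and JAK-STAT genes 8 rose and 1 fell with both, against 46.2% and 19.3% of all genes (median 0.32; 6 and 1 after quantile normalization), with Stat2 at 1.10, Jak2 at 1.05 ± 0.07, Ifngr2 at 0.92 and Socs3 at 0.85. Ifnb1, for interferon beta itself, was at 17.6 to 22.5 in control and 17.8 to 24.5 with both, near the 40th percentile of the arrays (18.8 to 22.5). Of 19 tested interferon-stimulated genes 13 rose and 2 fell, against the same shares (median 0.49; 10 and 5 after quantile normalization, where all genes split 4125 against 4894). Bst2 (2.77), Irgm1 (1.94) and Ifi35 (1.74) rose. Usp18, counted among the 13, passed the filter only through the arrays with both (147, 82.2 and 124, against 14, 16.4 and 13.1 in control), so its call carries no support. Ifit2 fell by 1.35, Mx1 was at 0.05 (not called), and Irf7, Rsad2 and Oasl2 were below the 40th percentile on every array. Gbp3 was also lower with both, at 147, 156 and 148 against 197, 169 and 201 in control. Ifit3 went the other way, from 184, 121 and 113 in control to 245, 306 and 255 with both. So did Ddx58 (227, 258 and 261 to 516, 575 and 522) and Xaf1 (57.4, 59.6 and 52.5 to 130, 153 and 168). Ifit1, dim in control (13.9, 15.3 and 12.7), was at 33.2, 67.1 and 35.7 with both and 75.3, 48.7 and 113 in KO.

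Markers of other cell types were read for the same arrays. Of 10 macrophage and leukocyte markers 5 were tested and 1, Cd68, rose with both (0.62), against 0 higher and 1 lower after quantile normalization, and their summed intensity was 421 to 448 in control and 418 to 596 with both. The pan-leukocyte marker Ptprc and the markers Itgam, Fcer1g and Tyrobp were below the 40th percentile on every array, and Ptprc was at 12.3 to 13.6 in control and 12.5 to 14 with both. Of 5 T and NK cell markers 0 were tested, and of those with a probe set Cd3e, Cd3g and Nkg7 were below that percentile throughout (summed intensity 55.2 to 58.8 in control, 60.6 to 69.4 with both). Of 5 endothelial markers 1 was tested and rose, Kdr (20.2, 12.5 and 14.6 to 94.3, 53.1 and 84.1), so that the sum went from 67.8 to 72.2 in control to 121 to 161 with both, while Tek, too dim to be tested, went from 14.1, 14.3 and 13.3 to 22.6, 22.4 and 22.7, and Pecam1, Cdh5 and Emcn stayed below the percentile; the part of such cells in the results was not tested. Of 5 epithelial markers 4 were tested, 0 rose and 1, Epcam, fell by 0.37, with sums of 133 to 150 and 128 to 135. All 10 fibroblast markers were tested, 6 rose and 2 fell (4 and 3 after quantile normalization), against 46.2% and 19.3% of all genes. Dcn went from 25.1, 19.9 and 22.3 in control to 4297, 3600 and 4041 with both, and S100a4 from 20340, 20848 and 20738 to 849, 1156 and 839; Col3a1 (0.94) and Pdgfrb (0.62) also rose. The part of these changes in the results was not tested. The fibroblast markers had a summed intensity of 182068 to 188877 in control and 198131 to 209041 with both.

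The genes for Psmb9, Tap1, Psmb8 and Tap2 lie next to each other on chromosome 17, in the RefSeq gene order of GRCm38.p6, inside the class II region. All 4 rose with both, but their neighbours among the tested genes did not all do so. On the Psmb9 side, H2-DMb2 (0.08) and Rxrb (0.05) did not pass, H2-DMa rose by 1.53 and Brd2, which encodes a reader of acetylated histones, fell by 0.71. On the Tap2 side, H2-Ab1 rose by 0.38, a call that ended with centred arrays (0.12, adjusted p = 0.272), and Pbx2 by 0.40, and H2-Ea (0.11) and BC051142 (0.03) did not pass. Brd2 was at 3386, 3546 and 2898 in control and 2061, 1952 and 1978 with both, and stood at 0.29 in Kd (adjusted p = 0.0781). Tap1 and Psmb9, whose starts share the window printed above, rose by 3.19 and 1.17.

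**Figure D5:**
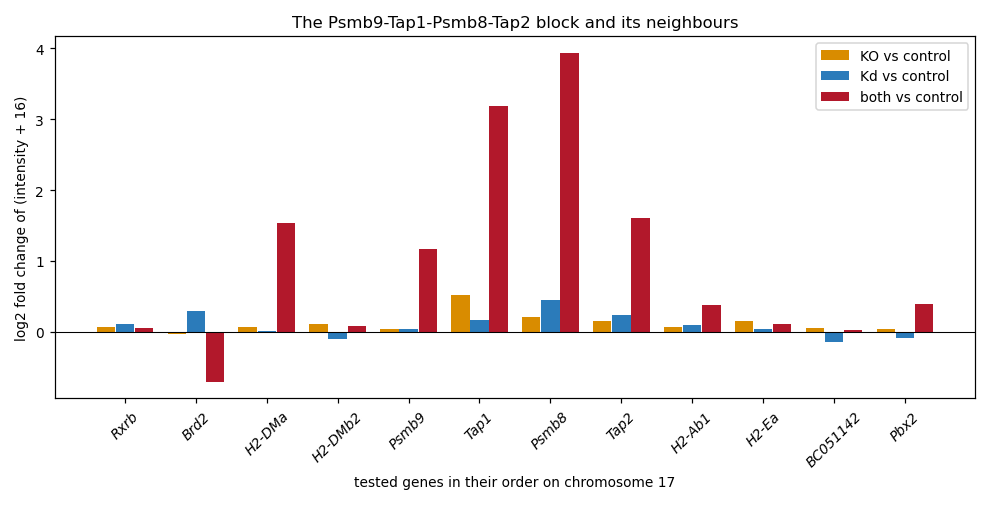
Log2 fold change against control (vertical axis) in KO, Kd and cells with both perturbations (bars) for the tested genes around the Psmb9, Tap1, Psmb8 and Tap2 block, in their order on chromosome 17 and not to scale. The bars for both reach 1.17, 3.19, 3.94 and 1.60 in the block, 1.53 at H2-DMa and -0.71 at Brd2.

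Genes with the most similar profile were picked by Pearson correlation over the 15 arrays with the mean of the standardised pathway genes. The arrays with both stand furthest apart, and those of +/+ cells were also above control in 8 of the 10 genes. These values therefore mostly reflect differences between groups and are given as a description. The closest were Pak3 (r = 0.9952), Qdpr (0.9938), Cdkn1c (0.9933), Zscan18, Limd2, Plod1, Moxd1 and Ptprn (0.989). Their log2 fold changes with both ranged from 0.86 for Qdpr to 5.05 for Moxd1, and that of Cdkn1c, which encodes the cell cycle inhibitor p57, was 4.14. In +/+ cells against control these genes ranged from 0.24 for Qdpr to 1.47 for Cdkn1c. Of the pathway genes Psmb8 followed the mean most closely (r = 0.988), and Psmb10 (0.423) and Erap1 (-0.559) least. Gene by gene, the nearest were Fst for H2-K1, Maob for H2-D1, Ctsh for B2m, Gxylt2 for Tap1, Gga2 for Tap2, Nap1l3 for Tapbp, Pak3 for Psmb8, Lcmt1 for Psmb9, Stbd1 for Psmb10 (r = 0.9114) and Zfp131 for Erap1 (r = 0.9559). Stbd1 was at 1509 in control, 2209 in Kd and 1981 with both, and Zfp131 at 2832, 3153 and 2215.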

How the data were processed

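Total RNA from the MEFs was labelled with biotin in a 1-cycle protocol and hybridised to Affymetrix mouse arrays, per the labels' protocols. The deposited table holds linear intensities, 1 column per array with replicates not pooled; summarisation, background correction and scaling are not given in the sources used here. Read depth has no counterpart on arrays, and the number of arrays (3 per group) limits the precision. Of 45037 probe sets 34945 had 1 gene symbol, 932 several and 9160 none, and only the first were used. No pair of arrays held identical values.

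From these intensities log2(intensity + 16) was computed. Probe sets above the 40th percentile of their array on at least 3 arrays were kept, with 1 per gene, that of the highest mean over the 15 arrays. All arrays entered 1 limma model (version 3.58.1, R 4.3.3; lmFit, contrasts.fit, eBayes) with a coefficient per group, and p-values were adjusted by Benjamini-Hochberg over all 13382 genes. The median SE was 0.0868 for a comparison of groups and 0.123 for the interaction. The model was tested on simulated data. Errors after ± are SE for fold changes and SD for intensities. Alternatives changed the filter, pseudocount, normalization, probe set choice, array weights, variance model, groups in the model and replicates; added after seeing the data were a fit of all probe sets and the alternatives for other named genes and lists. The members and lists were chosen with earlier results of these data known. Named are all 10 pathway genes, up to 4 genes with the largest change per list among those that passed, and the genes of most similar profile. Others were chosen after their values were seen (Irf1, Psmb5, Psmb6, Psmb7, Ifit1, Ifit2, Ifit3, Ddx58, Xaf1, Gbp3, Mx1, Tek, Ifnb1, Ciita, H2-Aa, H2-Eb1 and chromosomal neighbours).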

Additional observations from a re-analysis of the deposited data

Results flagged for a closer look

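In 9 of the 10 pathway genes the change with Hdac1 deletion by tamoxifen differed between cells with the hairpin against Hdac2 and cells with the scrambled one. The test was limma's interaction term with Benjamini-Hochberg adjustment over all genes, and 43% of all genes passed it. Without tamoxifen-treated cells that had this hairpin and intact Hdac1, deletion and a response to tamoxifen that depends on the hairpin cannot be told apart. The difference on the log2 scale was 2.05 for H2-K1 (2.03 in knockdown cells against -0.02; adjusted p = 1.49e-10) and 1.98 for H2-D1 (2.18 against 0.20; adjusted p = 2.41e-10). For B2m it was 0.574 (0.84 against 0.27; adjusted p = 7.43e-05). For the transporter and tapasin it was 2.51 for Tap1 (3.02 against 0.51; adjusted p = 2.18e-08), 1.2 for Tap2 (1.36 against 0.16; adjusted p = 6.76e-07) and 1.43 for Tapbp (1.67 against 0.24; adjusted p = 4.2e-08). For the immunoproteasome it was 3.29 for Psmb8 (3.49 against 0.20; adjusted p = 5.72e-11) and 1.10 for Psmb9 (1.14 against 0.04; adjusted p = 2.91e-06). Erap1 differed in the other direction, by -0.972 (-0.96 against 0.01; adjusted p = 0.000104).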

How the results depend on the processing

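Over the 10 genes, 9 comparisons and all alternatives, 1522 values stayed on their side of the threshold, 43 lost their call and 7 gained one. Of the 1522, 26 changed sign, all of them uncalled values that lay between -0.02 and 0.06 as reported for H2-K1, Psmb9, Psmb10, Erap1 and Tapbp in KO or Kd; 0 called values changed sign. The KO calls depended most on the setting: 4 pathway genes higher became 2 with the mean of probe sets, 1 with only the compared groups, after quantile normalization or with centred arrays, 0 with arrayWeights, and 2 to 4 without 1 array. The 3 higher in Kd became 1 with the mean of probe sets and 2 to 4 without 1 array. Against Kd, 2 genes instead of 1 were lower with both after quantile normalization and with centred arrays. With arrayWeights the genes called were 1282 in KO against control (3240 otherwise), 2815 in Kd (1417) and 1601 in KO against +/+ cells (3227). Psma7 and Lap3 changed sign with centred arrays (-0.0199 and -0.0285); the cause of these changes was not tested.

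Without 1 array at a time, genes called ranged from 2365 to 4024 in KO, 957 to 1052 in Kd, 8215 to 8385 with both, 7821 to 8049 for both against Kd, 7087 to 7625 for both against KO, 5211 to 5898 for the interaction, 2806 to 3355 in +/+ cells, 2511 to 3585 for KO and 7691 to 7931 for both against +/+ cells. The numbers of pathway genes called stayed the same in those runs except for KO, Kd and +/+ cells (7 to 8 higher).

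The replicate numbers did not pair the arrays: deviations of same-numbered arrays correlated between -0.161 and 0.135. With the replicate number as a block 8612 genes were called with both, 3007 in KO and 1303 in Kd, and 3 pathway genes in place of 4 rose in KO. H2-K1 could not be tested without _x_at and _s_at probe sets. Tap1, Psmb9 and Nlrc5 lay near the floor of the arrays in control and were dim in the other groups save cells with both perturbations, which limits their fold changes.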
